A study of Drosophila melanogaster with 24 samples.

Results

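Cap-G binding in neurons driven by elav-GAL4 (elav neurons) was set against Cap-G binding in neural stem cells driven by wor-GAL4 (NSCs), fragment by fragment and gene by gene. The comparison took the 8 Targeted DamID samples of these drivers out of 24 samples in the series. For each cell type there were 2 samples expressing the Cap-G-Dam fusion and 2 expressing Dam alone, from 30 dissected brains each. All came from 3rd instar Drosophila melanogaster larvae that carried tub-GAL80ts, were raised at 18 °C and were moved to 29 °C for the 24 h before DNA was extracted. The UAS construct held mCherry as its primary reading frame, followed by Cap-G with Dam fused to the C-terminus of Cap-G. The Dam-only line was UAS-LT3-NDam. elav-GAL4 labels neurons of all ages, newly born ones included, so its track is an average over immature and mature neurons.

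Condensin is a ring-shaped complex of SMC proteins that extrudes and compacts chromatin loops, best known for building mitotic chromosomes, and Cap-G is a HEAT-repeat subunit of condensin I. NSCs (neuroblasts) divide asymmetrically to renew themselves and to produce neurons, whereas neurons no longer divide. In Targeted DamID a bacterial adenine methylase, Dam, is tethered to a protein and marks GATC sites near which it binds, and the same methylase alone marks accessible DNA.

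The measured value at each GATC fragment is a log2 ratio, Cap-G-Dam over Dam-only, as the authors averaged it over replicates. With 1 averaged track per cell type there was no spread between replicates, so no SD, standard error or p-value could be given, and the depth of each sample is unknown. A ratio can also move through the Dam-only signal, which cannot be told apart here from a move of Cap-G. The tracks hold no expression, so the labelled cell types could not be checked against their markers.

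The genome was cut into 373710 fragments on 6 chromosome arms and of a median 196 bp. Fragment values were spread more widely in elav neurons, with an SD of 0.46 and a 5th to 95th percentile range of -0.77 to 0.74, against an SD of 0.30 and a range of -0.51 to 0.43 in NSCs. Each gene was given the length-weighted mean of the fragments over its span, and 11543 protein-coding genes of 13922 had at least 5 fragments and are the ranked genes. Gene values were then scaled within their own track, by subtracting the median of protein-coding genes and dividing by their median absolute deviation, set to the size of an SD. That unit was 0.28 log2 in elav neurons and 0.17 log2 in NSCs. A gene is written as having risen or fallen where its scaled value was higher or lower in elav neurons by at least 1 and its percentile among genes moved the same way by at least 20 points.

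Genes moved in both directions between the cell types. By this rule 1282 genes rose and 1038 fell, which is 11.1% and 8.99% of the genes tested. The median scaled difference over all of them was 0.07, and since each track was centred on its own median a shift common to all genes would not show. Risen genes had a median log2 ratio of 0.27 in elav neurons and -0.11 in NSCs. Fallen genes had a median of -0.08 in elav neurons and 0.17 in NSCs. Of the risen genes, 78.5% were below the gene median in NSCs and 82.2% were above it in elav neurons. Of the fallen genes, 73.7% were below the median in elav neurons and 88.0% were above it in NSCs.

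**Figure D1:**
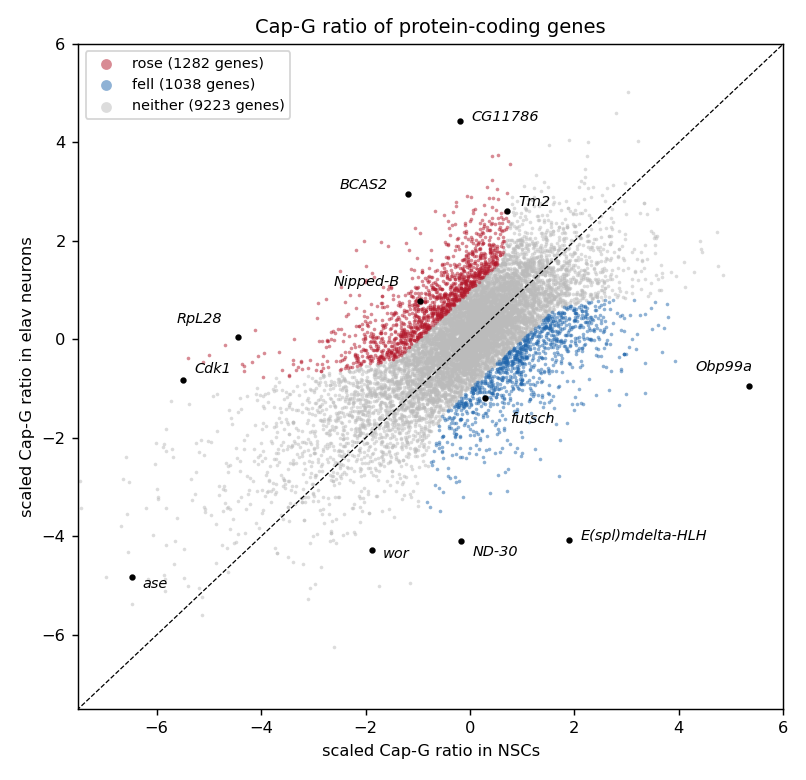
Scaled Cap-G ratio of 11543 protein-coding genes, with elav neurons on the vertical axis and NSCs on the horizontal axis (no unit; 0 is the gene median of that track). Each point is a gene, red for the 1282 that rose and blue for the 1038 that fell, and the dashed line marks equal values; E(spl)mdelta-HLH and Obp99a lie farthest below the line, CG11786 and Cdk1 far above it, and 8 genes fall outside the plotted range.

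Fallen genes were shorter, with a median length of 1860 bp, while risen genes had a median of 2619 bp and all genes tested 2693 bp. In the shortest 20% of genes 14.8% fell, and in the longest 20% only 1.69% fell. The SD of the scaled difference was 1.27 in the shortest 20% and 0.65 in the longest. Short genes average fewer fragments, and how much of this spread is error of measurement was not tested.

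The sites with the lowest Cap-G ratios were held in common by NSCs and neurons much more than the sites with the highest. Among the lowest 5% of fragments in elav neurons, 53.2% were also among the lowest 5% in NSCs. Among the highest 5% in elav neurons, 21.2% were also among the highest 5% in NSCs. The same order was seen over gene spans, with 52.6% of the lowest and 23.5% of the highest shared, and over bins of 10 kb, with 57.3% and 29.4%. At 1% of fragments the shares were 44.4% for the lowest and 9.17% for the highest.

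**Figure D2:**
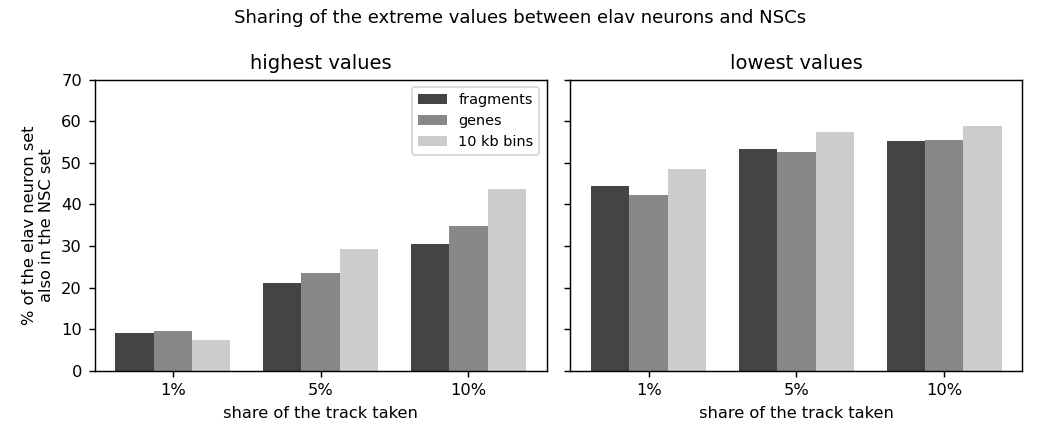
Share of the highest values (left) and lowest values (right) of elav neurons that were also extreme in NSCs, in percent, when the top or bottom 1%, 5% or 10% of each track was taken. Bars stand for GATC fragments, protein-coding genes and 10 kb bins; at each size every bar on the right is taller than its partner on the left.

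Fragments high in elav neurons only had a median log2 ratio of 0.90 in elav neurons and 0.10 in NSCs, which is the 76.8th percentile of the NSC track. Those high in NSCs only had a median of 0.25 in elav neurons, the 73.4th percentile there, and 0.56 in NSCs. The elav-only sites were therefore mostly above the middle of the NSC track already. Outright exchange was rare, since 180 fragments went with the highest 5% in elav neurons and the lowest 5% in NSCs, and 197 with the lowest 5% in elav neurons and the highest 5% in NSCs. High fragments lay inside protein-coding genes more often than low ones. In elav neurons 85.3% of the highest and 66.1% of the lowest did, in NSCs 84.8% and 69.7%, and over all fragments 72.1%.

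The ranking of genes was kept best at its lower end. Of genes in the lowest 10% in NSCs, 53.1% were also in the lowest 10% in elav neurons, while for the highest 10% the share was 34.0%. Across 10 kb bins Spearman's rank correlation between the tracks was 0.66 (n = 13390 bins, which are not independent along a chromosome), and it lay between 0.66 and 0.71 on each arm. Several neural fate genes were at the bottom of both tracks. The homeobox gene homeobrain (hbn) had a log2 ratio of -1.23 in elav neurons and -0.94 in NSCs. The neuronal zinc-finger gene nerfin-1 had -1.38 in elav neurons and -0.97 in NSCs, and the proneural factor asense (ase) had -1.30 in elav neurons and -1.07 in NSCs.

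**Figure D3:**
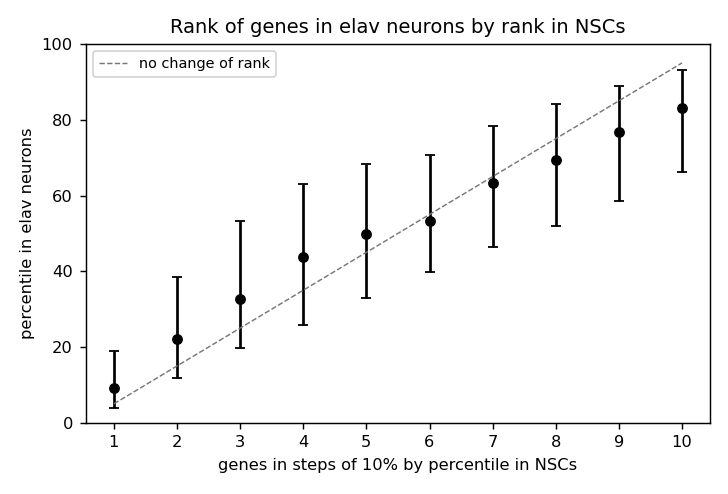
Percentile of genes in elav neurons (vertical axis, 0 to 100) for genes taken in steps of 10% by their percentile in NSCs (horizontal axis). Points are medians over the genes of a step, bars run from the 25th to the 75th percentile of those genes, and the dashed line marks an unchanged rank; the lowest step has a median of 9.11 and the highest 83.0.

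The 10 largest rises were all at short genes, several of them with roles in every cell. Cdk1, the kinase that drives entry into mitosis (2L:10384739-10386262, 8 fragments), had a log2 ratio of -0.18 in elav neurons and -0.91 in NSCs, a scaled difference of 4.67. Its site was thus strongly depleted of Cap-G relative to Dam in NSCs and near the 21.6th percentile in elav neurons. RpL28, a protein of the large ribosomal subunit, had 0.06 in elav neurons and -0.73 in NSCs. The spliceosome component BCAS2 had 0.88 in elav neurons and -0.20 in NSCs, and Ostgamma, a subunit of the oligosaccharyltransferase, had 0.61 in elav neurons and -0.34 in NSCs. Rad51D, a recombinase paralogue of DNA repair, had 0.11 in elav neurons and -0.68 in NSCs. The mitochondrial ribosomal protein gene mRpS25 had -0.08 in elav neurons and -0.85 in NSCs. The uncharacterised neighbours CG11786 and CG11790 on 3R both rose, CG11786 having 1.29 in elav neurons and -0.03 in NSCs, and CG11790 having -0.06 in elav neurons and -0.89 in NSCs. CG31360 and CG6674 completed the 10 largest rises, with scaled differences of 4.69 and 4.57.

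The largest falls were mostly at short genes of sensory, cuticle or unknown function, together with a Notch target. Obp99a, an odorant-binding protein gene (3R:29671657-29672334, 5 fragments), had -0.21 in elav neurons and 0.88 in NSCs, a scaled difference of -6.29. All 5 of its fragments were above 0 in NSCs and 1 was above 0 in elav neurons. E(spl)mdelta-HLH, a bHLH repressor of the Notch response (3R:25997621-25998633, 5 fragments), had -1.09 in elav neurons and 0.31 in NSCs, a scaled difference of -5.97. The larval cuticle gene Ccp84Ab had -0.07 in elav neurons and 0.65 in NSCs. The gustatory receptor gene Gr93c had -0.02 in elav neurons and 0.61 in NSCs, but with 5 kb of flank on each side its scaled difference was 0.01. ND-30, a subunit of mitochondrial complex I, had -1.10 in elav neurons and -0.03 in NSCs. CG12438, CG2577, CG15399, CG43331 and CG14013 fell by 3.83 to 4.48 scaled units. These 20 genes had 5 to 9 fragments each, so single fragments weigh heavily in their values.

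Longer genes that went between the outer 25% of the ranking rest on more fragments. There were 107 genes in the highest 25% in elav neurons and the lowest 25% in NSCs, and 138 in the lowest 25% in elav neurons and the highest 25% in NSCs. Nipped-B, which loads cohesin onto chromatin, had the most fragments of the 107, with 124, and had a log2 ratio of 0.27 in elav neurons and -0.16 in NSCs. The chromatin remodeller gene dom, over 76 fragments, had 0.25 in elav neurons and -0.18 in NSCs. Further chromatin and cytoskeletal regulators were among the long ones. The histone methyltransferase gene Set1 had 0.25 in elav neurons and -0.31 in NSCs, and pbl, needed for cytokinesis, had 0.26 in elav neurons and -0.23 in NSCs. The kinase gene Pak had 0.33 in elav neurons and -0.13 in NSCs, and the formin gene Frl had 0.31 in elav neurons and -0.17 in NSCs. Of the 138, the longest by fragments was CG6614 with 29, at -0.14 in elav neurons and 0.22 in NSCs. The deubiquitinase gene Usp8 had -0.16 in elav neurons and 0.16 in NSCs, and the TFIIH helicase gene Xpd had -0.23 in elav neurons and 0.15 in NSCs. These examples were chosen after their values were seen, by number of fragments and known role.

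The change extended over long stretches at some loci. Among 13390 bins of 10 kb, 12.2% rose and 7.51% fell by the same rule, and 104 stretches of at least 3 neighbouring bins rose (3.96 Mb in all) while 46 fell (1.59 Mb). Without the condition on percentiles, 20.2% of bins rose and 9.51% fell, giving 269 and 65 stretches, and the longest of these, 24 bins, was on chromosome 4. With both conditions the longest rising stretches had 8 bins, and 1 of the 3 of that length covered cv-c. The mean log2 ratio of this stretch was 0.47 in elav neurons and -0.02 in NSCs. The gene (3R:14391683-14481713) has 252 fragments, of which 234 were above 0 in elav neurons and 132 in NSCs.

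Of the other long stretches, one on 2R covered Nipped-A, which encodes the Tra1 subunit of histone acetyltransferase complexes, and d4, with means of 0.08 in elav neurons and -0.17 in NSCs. A second on 2R ran across 15 genes that include the adducin gene hts and the Hippo kinase gene hpo, with 0.24 in elav neurons and -0.07 in NSCs. One on 3R ran between Eip93F, an ecdysone-induced transcription factor gene, and how, an RNA-binding protein gene, with 0.17 in elav neurons and -0.10 in NSCs. Of its 13 genes 6 rose and none fell, but the stretch was picked because its bins rose in these same tracks. A stretch at CG9932 on 2L had 0.31 in elav neurons and -0.03 in NSCs, and Nipped-B filled 1 of its own on 2R with 0.17 in elav neurons and -0.17 in NSCs.

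Falling stretches were fewer and shorter. The longest, of 6 bins at CG11634 and CG2528 on 2L, had a mean of -0.41 in elav neurons and -0.02 in NSCs, although neither gene fell over its whole span. On 3R a stretch of 5 bins held Prosalpha3T, a testis-specific proteasome subunit gene, and Ktch, and had -0.16 in elav neurons and 0.03 in NSCs. Ktch itself had -0.37 in elav neurons and 0.19 in NSCs. On 2R a stretch with the homeobox gene otp had -0.22 in elav neurons and 0.04 in NSCs. One on 3L held Or65a, Or65b and Or65c, a cluster of odorant receptor genes, with -0.26 in elav neurons and -0.02 in NSCs.

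The neuronal microtubule-binding protein gene futsch was the only fallen gene among 14 early neuron genes. It had a log2 ratio of -0.28 in elav neurons and 0.05 in NSCs over 119 fragments, of which 37 were above 0 in elav neurons and 75 in NSCs. Its scaled difference was -1.47. Over the genome such changes were largely local. The percentile difference of 1 kb bins correlated with that of the next bin at r = 0.43 (n = 133866 pairs), at 10 kb distance at 0.14 and at 100 kb distance at 0.04. These bins share fragments and are not independent.

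**Figure D4:**
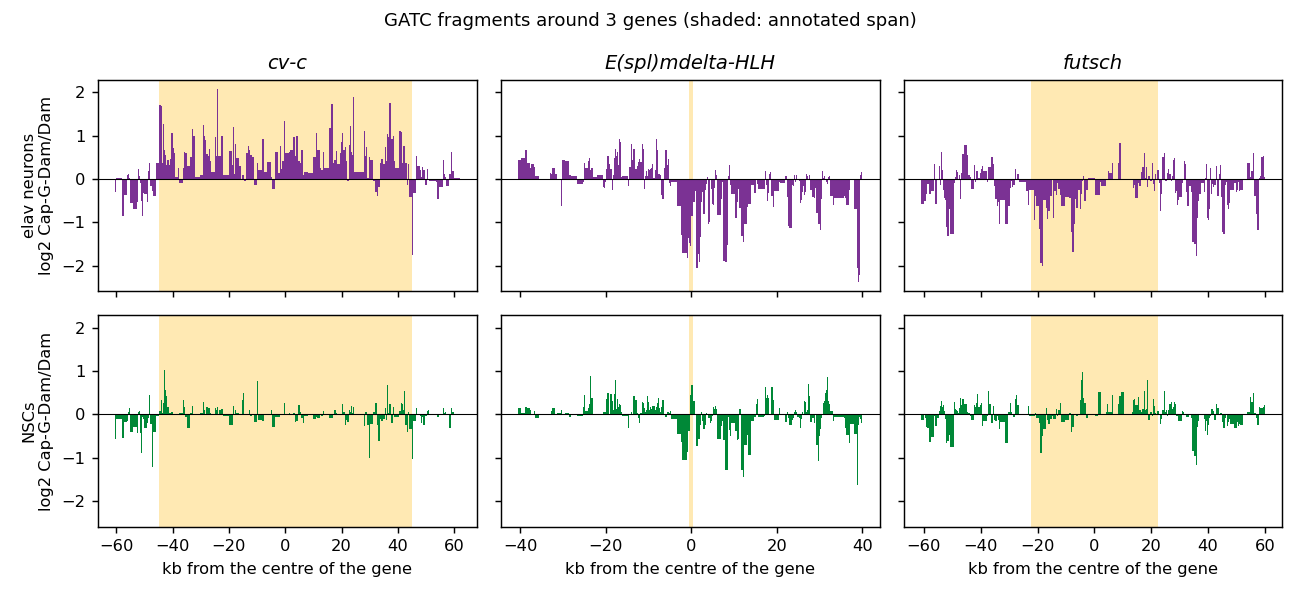
Log2 Cap-G-Dam/Dam of each GATC fragment (bars) against distance in kb from the centre of cv-c (left), E(spl)mdelta-HLH (middle) and futsch (right), with elav neurons above NSCs and the annotated span of the gene shaded. In cv-c 234 of 252 fragments were above 0 in elav neurons against 132 in NSCs, while E(spl)mdelta-HLH had no fragment above 0 in elav neurons and 3 of 5 in NSCs.

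Many genes of the Notch response fell. The E(spl) complex and the Bearded family encode bHLH repressors and small Notch modulators that are switched on by Notch signalling, which keeps NSCs dividing. Of 15 genes 11 had at least 5 fragments, and of these 5 fell (45.5%, against 8.99% of all genes) and none rose, with a median scaled difference of -1.57. E(spl)m2-BFM had -0.31 in elav neurons and 0.35 in NSCs, Ocho had -0.26 in elav neurons and 0.25 in NSCs, and E(spl)m5-HLH had 0.03 in elav neurons and 0.33 in NSCs. E(spl)m4-BFM had -0.29 in elav neurons and -0.00 in NSCs. E(spl)mgamma-HLH, which the paper names with dpn as a site of Cap-G binding, had -1.06 in elav neurons and -0.22 in NSCs. It has 4 fragments and was not ranked. E(spl)m7-HLH was -1.35 in elav neurons and -0.29 in NSCs, a scaled difference of -3.25 that did not count as a fall because it was already at the 10.6th percentile in NSCs. The range ran to the opposite sign, since among ranked genes E(spl)malpha-BFM had a scaled difference of 0.99. E(spl)m8-HLH, not ranked with 3 fragments, had a scaled difference of 2.09, from -1.50 in elav neurons and -1.26 in NSCs. From E(spl)mdelta-HLH to E(spl)m8-HLH, over 43.4 kb and 203 fragments, the mean log2 ratio was -0.55 in elav neurons and -0.21 in NSCs. Neighbouring members share this locus, so they are not separate observations.

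Of 26 ranked genes of NSC identity, out of 28, 10 were higher and 16 lower in elav neurons. By the rule 2 rose and 2 fell, 7.69% each, against 11.1% risen and 8.99% fallen among all genes. A gene in the lowest 20% in NSCs cannot fall by the rule, and the median NSC percentile of the list was 16.2. The fallen count is therefore limited by the rule. The median scaled difference was -0.25, and it was lower still against a straight line fitted between the tracks (value in the closing section). The polarity gene par-6 rose to 0.11 in elav neurons, against -0.17 in NSCs, and pins, which orients the spindle, rose to 0.44 in elav neurons, against 0.03 in NSCs. The fallen members were scute (sc), with -0.16 in elav neurons and 0.06 in NSCs, and buttonhead (btd), with -0.33 in elav neurons and -0.02 in NSCs. The scute neighbours ac and l(1)sc had lower values in elav neurons too, but only 2 fragments each. The gene of the NSC driver, worniu (wor), had -1.15 in elav neurons and -0.31 in NSCs, a scaled difference of -2.41 with a percentile change short of the rule. The NSC repressor gene deadpan (dpn) had -0.22 in elav neurons and -0.21 in NSCs, and mira, which carries fate determinants to the daughter cell, had -0.29 in elav neurons and -0.41 in NSCs.

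The 24 temporal factors, which change what neurons an NSC makes as it ages, had no member that rose or fell, and a median of 0.09 that was -0.70 against a straight line fitted between the tracks. Their median NSC percentile was 19.7, and a gene in the lowest 20% in NSCs cannot fall by the rule. Their median log2 ratio was -0.32 in elav neurons and -0.17 in NSCs. The lowest was hth at -0.44 in elav neurons and -0.14 in NSCs, a scaled difference of -0.88, and the highest hbn at 1.10. The early neuron genes had 0 risen and a median of 0.25, which was -0.57 against that line. Their median NSC percentile was 17.6, so the same limit on falls holds for many of them. elav itself had -0.70 in elav neurons and -0.64 in NSCs, and lola, needed to hold neurons in their differentiated state, had -0.29 in elav neurons and -0.42 in NSCs.

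Among 30 ranked of 31 cell cycle and replication genes 2 rose (6.67%, against 11.1% of all genes) and 1 fell (3.33%, against 8.99%). Their median was 0.27, but -0.24 against that line. Besides Cdk1, the S-phase kinase gene Cdk2 rose, with 0.06 in elav neurons and -0.21 in NSCs. The mitotic kinase gene aurB fell, with -0.49 in elav neurons and 0.02 in NSCs. String (stg), the Cdc25 phosphatase that releases cells into mitosis, had -0.84 in elav neurons and -0.35 in NSCs, and Cyclin E (CycE) had -0.48 in elav neurons and -0.30 in NSCs. Neither passed the rule. At percentiles of 7.78 (stg) and 10.1 (CycE) in NSCs, neither could fall by it. The median NSC percentile of the list was 20.6.

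Several genes of the condensin and cohesin complexes rose. Of 14 ranked genes out of 15, 4 rose (28.6%, against 11.1% of all genes) and none fell, with a median scaled difference of 0.67 that was 0.25 against a straight line fitted between the tracks. Their median log2 ratio was 0.04 in elav neurons and -0.14 in NSCs. Besides Nipped-B these were Cap-H2, the kleisin of condensin II, with -0.00 in elav neurons and -0.34 in NSCs, vtd, the cohesin kleisin, with 0.23 in elav neurons and -0.15 in NSCs, and pds5, a cohesin regulator, with 0.34 in elav neurons and -0.06 in NSCs. The Cap-G gene itself had 0.08 in elav neurons and 0.08 in NSCs, a scaled difference of -0.39, and barr, the condensin I kleisin, had 0.00 in elav neurons and -0.17 in NSCs. The Cap-G-Dam transgene holds Cap-G sequence, and its part in the value of Cap-G was not tested. The list started low in NSCs, with a median percentile of 23.3. In the 2nd and 3rd lowest 10% of genes by NSC rank, 317 of 1180 and 225 of 1196 rose. The part of this starting rank in the 4 rises was not tested.

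Genes of neuronal function were more often lower than higher in elav neurons. Of 35 synaptic genes 12 were higher and 23 lower (median -0.21). By the rule 1 rose and 1 fell, 2.86% each, against 11.1% risen and 8.99% fallen among all genes. The vesicle coat adaptor gene lap rose, with 0.29 in elav neurons and -0.04 in NSCs, and the serotonin transporter gene SerT fell, with 0.17 in elav neurons and 0.35 in NSCs. nSyb, the vesicle SNARE, had -0.12 in elav neurons and -0.08 in NSCs. Of 45 ion channel and receptor genes 14 were higher and 31 lower, and 1 rose and 4 fell (median -0.15). The fallen share, 8.89%, was that of all genes (8.99%), and these genes are long, with a median of 23966 bp, where 1.69% of the longest 20% of all genes fell. The serotonin receptor gene 5-HT2A rose to 0.49 in elav neurons, against -0.01 in NSCs. The glutamate receptor genes GluRIIA, GluRIIB and Nmdar2 and the nicotinic receptor gene nAChRalpha2 fell. GluRIIA had 0.06 in elav neurons and 0.34 in NSCs, and Nmdar2 had -0.28 in elav neurons and 0.08 in NSCs. GluRIIA and GluRIIB are neighbours.

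Cell-surface genes that guide axons and match synaptic partners were lower in a modest, broad way. In the list of axon guidance and adhesion, 37 of 49 genes had a scaled difference below 0 and the median was -0.46, yet none fell by the rule and 1 rose. That was the Semaphorin receptor gene PlexB, with -0.02 in elav neurons and -0.25 in NSCs. CadN, the neuronal cadherin, had -0.49 in elav neurons and -0.13 in NSCs. Of 32 Dpr and DIP genes, immunoglobulin proteins that pair between synaptic partners, 27 were lower and 5 higher, none rose or fell, and the median was -0.40. These are long genes, with a median of 41413 bp in the guidance list and 32526 bp in the Dpr and DIP list. Over all genes 53.3% had a difference above 0.

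Of 32 muscle sarcomere genes 6 rose (18.8%, against 11.1% of all genes) and 1 fell, with a median of 0.27. The troponin C gene TpnC73F had 0.67 in elav neurons and -0.01 in NSCs. Tm2, a tropomyosin gene, had 0.78 in elav neurons and 0.12 in NSCs, and Tm1 had 0.29 in elav neurons and -0.09 in NSCs. The muscle actin genes Act87E and Act88F and the troponin T gene up rose too, while Mlp60A fell. Mhc, the muscle myosin heavy chain, had 0.27 in elav neurons and 0.02 in NSCs, and Obsc, the giant obscurin, had 0.50 in elav neurons and 0.33 in NSCs, neither passing the rule. Of 23 glial genes 1 rose and 1 fell, 4.35% each (median 0.26). The transporter gene Mdr65 of the blood-brain barrier had 0.61 in elav neurons and 0.11 in NSCs. gcm2, related to the glial switch gene gcm, had -0.30 in elav neurons and 0.03 in NSCs, but 0.11 scaled units with 5 kb of flank. repo, the pan-glial homeobox gene, had 0.12 in elav neurons and 0.05 in NSCs.

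Of 47 Hox genes and other Polycomb targets 12 were higher and 35 lower in elav neurons, with a median of -0.21 and a median percentile of 33.4 in elav neurons and 55.3 in NSCs. By the rule 4 rose and 4 fell, 8.51% each, against 11.1% risen and 8.99% fallen among all genes. Scr had 0.47 in elav neurons and 0.06 in NSCs, and the Pax gene toe had 0.60 in elav neurons and 0.06 in NSCs. ftz fell, with -0.61 in elav neurons and -0.06 in NSCs, and so did the ligand gene hh, with -0.07 in elav neurons and 0.16 in NSCs.

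**Figure D5:**
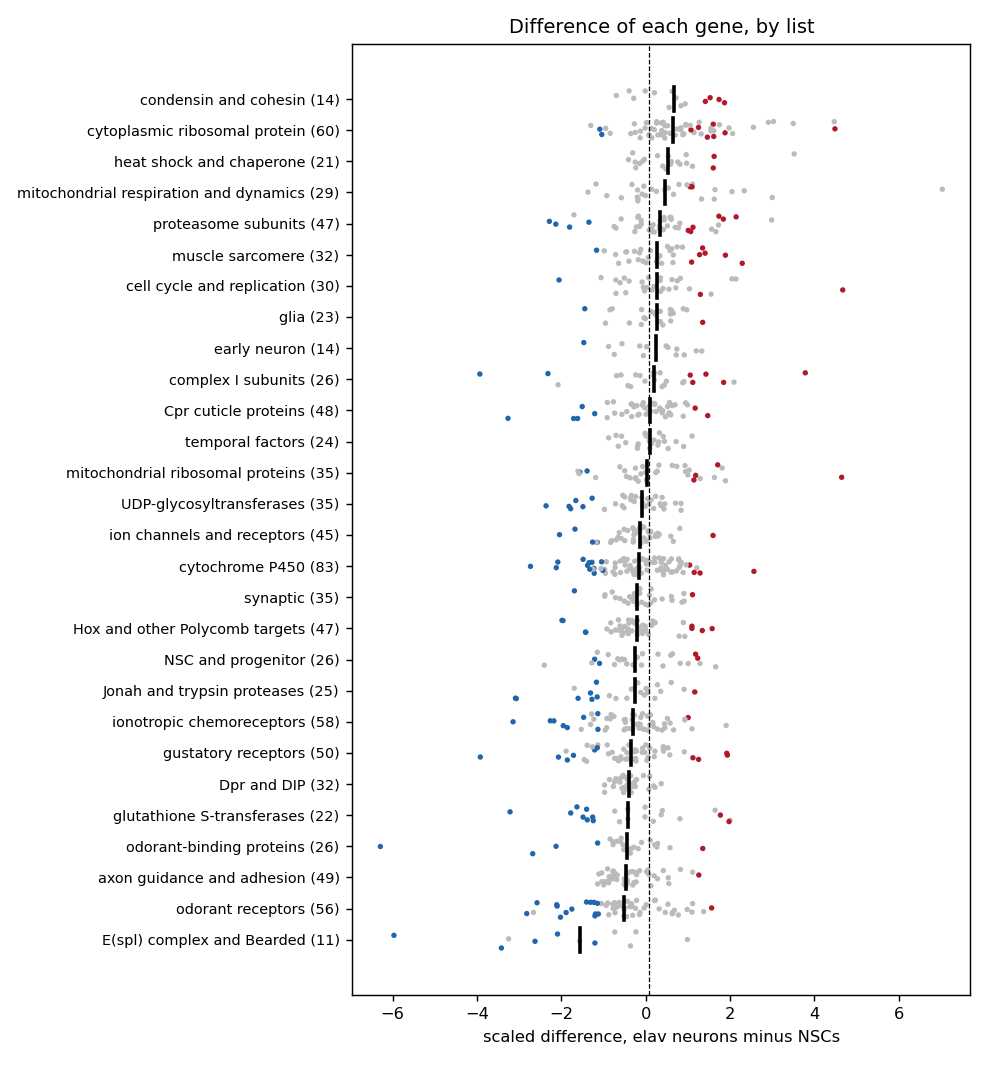
Scaled difference, elav neurons minus NSCs, of every gene with at least 5 fragments in 28 gene lists (number of such genes in brackets), on a scale with no unit. Points are genes, red where risen and blue where fallen; thick black bars are list medians, and the dashed line is the median of all genes, 0.07. The E(spl) complex and Bearded list has the lowest median, -1.57, and condensin and cohesin the highest, 0.67 (0.25 against a straight line fitted between the tracks).

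Among chemosensory genes the odorant receptors had the largest fallen share. Of 56 ranked odorant receptor genes, out of 60, 14 fell (25.0%, against 8.99% of all genes) and 1 rose, with a median of -0.51. Their median percentile was 56.6 in elav neurons and 80.0 in NSCs. By NSC rank, 395 of 1191 genes in the highest 10% fell and 236 of 1237 in the next 10%. A gene in this highest 20% cannot rise by the rule. The part of this starting rank in the counts of the chemosensory lists was not tested. Or42b had -0.42 in elav neurons and 0.19 in NSCs, and Or83a had -0.25 in elav neurons and 0.25 in NSCs. Or67b was the 1 that rose, with 0.65 in elav neurons and 0.09 in NSCs. Of 58 ranked ionotropic chemoreceptor genes, out of 60, 8 fell (13.8%) and 1 rose (median -0.30), Ir48c having -0.59 in elav neurons and 0.14 in NSCs. Of 50 ranked gustatory receptor genes, out of 60, 6 fell and 4 rose (median -0.35), a smaller fallen share than among ionotropic genes. Among the risen, Gr77a had 0.78 in elav neurons and 0.11 in NSCs, and Gr39b had a difference of 1.94 that became -0.69 with 5 kb of flank. Of 51 odorant-binding protein genes 26 were ranked, 4 fell (15.4%) and 1 rose (median -0.44). The shares of these last 3 families lie near the 14.8% that fell in the shortest 20% of all genes. The risen one, Obp56c, had a difference of 1.35 that became -0.35 with flanks.

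Detoxification, digestive and cuticle genes had more falls than rises, and 8.99% of all genes and 14.8% of the shortest 20% fell. The median NSC percentiles of these lists ran from 73.1 to 84.2. A gene in the highest 20% in NSCs cannot rise by the rule. Of genes in the highest 10% in NSCs 395 of 1191 fell, and of the next 10% 236 of 1237. The part of the starting rank in the counts below was not tested. Of 22 ranked glutathione S-transferase genes, out of 25, 8 fell (36.4%) and 2 rose, with a median of -0.43. They sit in clusters, and 6 of the 8 were GstE genes. GstD3 had 0.01 in elav neurons and 0.50 in NSCs, whereas GstD7, in the same cluster, had 0.61 in elav neurons and 0.00 in NSCs. Of 83 ranked cytochrome P450 genes, out of 85, 12 fell (14.5%) and 4 rose (median -0.15, but 0.21 against a straight line fitted between the tracks). Cyp9h1 had -0.04 in elav neurons and 0.40 in NSCs, and Cyp28d2 had 0.79 in elav neurons and 0.01 in NSCs. Of 35 UDP-glycosyltransferase genes 6 fell (17.1%) and none rose (median -0.09). Of 25 ranked Jonah and trypsin protease genes, out of 27, 7 fell and 1 rose (median -0.27), with epsilonTry at -0.10 in elav neurons and 0.42 in NSCs. The risen one, Jon99Cii, had a difference of 1.16 that became -0.53 with flanks. Of 48 ranked Cpr cuticle protein genes, out of 70, 5 fell (10.4%) and 2 rose, with a median of 0.10, and Cpr49Ag had 0.11 in elav neurons and 0.58 in NSCs.

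The fallen members of these 9 families were mostly high in NSCs and near the middle in elav neurons. The rule for a fall picks genes that rank high in NSCs, and 88.0% of all fallen genes were above the NSC median. The NSC ranks below are therefore largely set by the selection. Over the 70 of them the median percentile was 42.9 in elav neurons and 92.2 in NSCs, and 15 were in the lowest 25% in elav neurons while 61 were in the highest 25% in NSCs. They are also short, the median length of the families running from 865 bp for glutathione S-transferases to 2129 bp for cytochrome P450, and members of clusters share neighbourhoods. In the shortest 20% of all genes 14.8% fell, and the part of gene length in these counts was not tested.

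Several lists of genes that every cell uses had scaled medians above that of all genes, but mitochondrial ribosomal protein genes did not. Of 60 cytoplasmic ribosomal protein genes with enough fragments, out of 86, 49 had a difference above 0 and the median was 0.64. Their percentiles hardly moved, with a median of 13.9 in elav neurons and 9.36 in NSCs, and 7 rose (11.7%) and 2 fell. RpS5a had 0.21 in elav neurons and -0.17 in NSCs, RpL19 had -0.12 in elav neurons and -0.41 in NSCs, and the fallen RpL11 had -0.06 in elav neurons and 0.11 in NSCs, with a difference of 0.43 once flanks were added. Against a straight line fitted between the tracks instead of equal scaled values, the ribosomal median was -0.08, and those of mitochondrial respiration, heat shock and proteasome genes were also below 0.

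Among 21 ranked heat shock and chaperone genes, out of 23, 2 rose (9.52%, against 11.1% of all genes) and none fell (median 0.54). The endoplasmic reticulum chaperone gene Gp93 had 0.37 in elav neurons and -0.08 in NSCs. The heat shock factor gene Hsf had 0.13 in elav neurons and -0.22 in NSCs. Among 29 ranked genes of mitochondrial respiration and dynamics, out of 32, 2 rose and none fell (median 0.45). Cyt-c1, of complex III, had 0.20 in elav neurons and -0.09 in NSCs. Of 26 ranked complex I genes, out of 40, 5 rose (19.2%, against 11.1% of all genes) and 2 fell (median 0.21, but -0.06 against the line). ND-MWFE had -0.10 in elav neurons and -0.72 in NSCs, and ND-13B had 0.23 in elav neurons and -0.13 in NSCs. Of 35 ranked mitochondrial ribosomal protein genes out of 73, 4 rose (11.4%, against 11.1% of all genes) and 2 fell (5.71%, against 8.99%). Their median was 0.03, and -0.36 against the line, with mRpL28 at 0.34 in elav neurons and -0.11 in NSCs. These 4 lists started low in NSCs, with median percentiles from 17.8 to 26.1. A gene in the lowest 20% there cannot fall by the rule. In the 2nd and 3rd lowest 10% of genes by NSC rank, 317 of 1180 and 225 of 1196 rose. The part of this starting rank in the counts was not tested.

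Of 47 ranked proteasome genes, out of 48, 6 rose (12.8%) and 4 fell (8.51%), shares near the 11.1% and 8.99% of all genes (median 0.33). The risen ones included the general subunit genes Rpt6, Rpn5, Prosalpha4 and Rpt5, with Rpt6 at -0.02 in elav neurons and -0.40 in NSCs. The 4 that fell, Prosbeta4R2, Prosalpha3T, Rpn12R and Prosbeta5R2, are all additional copies of general subunits. Prosbeta4R2 had -0.01 in elav neurons and 0.34 in NSCs. The copies Rpt3R and Rpn13R rose, so not every copy fell, and this grouping was made after the values were seen.

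Small nucleolar RNA genes stood above other gene classes. Their 269 genes, which guide chemical modification of ribosomal RNA and mostly lie in introns, had a median scaled difference of 1.07 and medians of 0.03 in elav neurons and -0.18 in NSCs. They have a median of 1 fragment each, and 257 lie inside other genes. Of their 91 ranked hosts, lncRNA hosts included, 18 rose (19.8%, against 11.1% of all protein-coding genes) and 2 fell, with a median of 0.55. Hosts were already low in NSCs, with a median log2 ratio of -0.18 there. Counted from the lowest, steps 2 and 3 of the NSC ranking had median log2 ratios of -0.22 and -0.12 in NSCs. In these steps 317 of 1180 and 225 of 1196 ranked protein-coding genes rose. The part of this starting rank in the host counts and in the snoRNA and host medians was not tested. The snoRNA host Uhg2 had a log2 ratio of 0.08 in elav neurons and -0.38 in NSCs. A snoRNA gene shares its fragment with its host, so their values are not separate.

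The arms differed most at chromosome 4 and X. On chromosome 4, which is largely heterochromatic, 12 of 76 genes rose (15.8%) and none fell, and 28.9% of its 135 bins rose. The bins of chromosome 4 were low in both cell types, with a median log2 ratio of -0.15 in elav neurons and -0.20 in NSCs. Their median percentile was higher by 11.4 points in elav neurons. On X 6.12% of 1929 genes rose and 9.69% fell, whereas 10.9% to 12.9% rose on the large autosomal arms. Larvae were not described by sex in the labels, and the number of X copies was not analysed here.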

How the data were processed

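Per the labels, the authors digested methylated DNA with DpnI and mapped reads with Bowtie2 to BDGP6. The authors deposited 1 track per cell type, a log2 ratio (Cap-G-Dam over Dam-only) per GATC fragment averaged over replicates. The sources used here state neither how they averaged nor the tool versions. Only the elav and NSC tracks were used. Gene spans came from a Release 6 gene table of 17684 genes on the 6 arms that holds no strand or sequence, so promoters, motifs and distances from gene starts were not analysed here.

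Values were computed with Python 3.11.15, numpy 2.4.6, pandas 2.3.3 and scipy 1.17.1, and the code was tested on simulated data. Fragments at exactly 0 (28782 in elav neurons, 31996 in NSCs, 25974 in both) were kept. No test was run. Named genes are the 10 largest rises and falls, the genes shown beside binding data by the study, the extremes of each list, members of the NSC, Notch, temporal and early neuron lists, genes in long stretches and cell type markers; further called members were named after their values were seen. The members and the 28 lists (4 entries unmatched) were chosen with earlier results of these data known. The percentile condition on bins, the tolerances for calling a result moved and the comparison of extremes over genes and bins were set after the values were seen.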

Additional observations from a re-analysis of the deposited data

How the results depend on the processing

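Counts of genes (1282 rose, 1038 fell) were 786 and 643 with SDs as the scale, 742 and 512 with fragments of 200 to 2000 bp, 820 and 546 with at least 10 fragments, and 571 and 517 at a scaled difference of 1.5. Over 5956 genes that overlap no other, an alternative chosen after seeing the data, they were 623 (10.5%) and 612 (10.3%). Which genes were called depended on the summary: with 5 kb flanks 41.1% of the risen and 32.9% of the fallen were called again, with fragments of 200 to 2000 bp 51.9% and 41.3%. Spearman's rank correlation (0.66) was 0.55 over 1 kb bins and 0.44 over fragments, and Pearson's r was 0.72. The highest 1% of fragments shared 9.17%, against 21.2% at 5%. Stretches that rose (269) numbered 568 with 5 kb bins, 130 with 20 kb bins, 121 at 1.5 and, chosen after seeing the data, 104 with the percentile condition; those that fell (65) numbered 130, 39 and 5 under the first 3. Against a least-squares line, list medians were -0.88 for NSC and progenitor genes, -0.70 for temporal factors, -0.57 for early neuron genes, -0.24 for cell cycle genes, 0.25 for condensin and cohesin, -0.0748 for odorant-binding proteins, 0.21 for cytochrome P450 and -0.36 for mitochondrial ribosomal proteins; they were also -0.06 for complex I, -0.24 for mitochondrial respiration, -0.0310 for heat shock, -0.0784 for cytoplasmic ribosomal proteins and -0.10 for the proteasome. The medians of these last 5 lists and of temporal factors, early neuron, cell cycle, cytochrome P450 and mitochondrial ribosomal protein genes changed sign under this line. With normal scores of ranks they were -1.10 for E(spl) and Bearded, -0.18 for early neuron genes, 0.0495 for mitochondrial respiration and 0.30 for ribosomal proteins. With unweighted medians they were -0.0459 for cell cycle genes and 1.32 for ribosomal proteins, and with 5 kb flanks -1.25 for E(spl) and Bearded, 0.77 for mitochondrial respiration and 0.38 for mitochondrial ribosomal proteins. Flanks also turned round the called genes Gr93c (0.0112), gcm2 (0.11), RpL11 (0.43), Gr39b (-0.69), Obp56c (-0.35) and Jon99Cii (-0.53). The cause of these moves was not tested. The least-squares and normal-score alternatives carry no percentile condition. The tolerances behind "moved" (0.05 for correlations, 0.3 scaled units, 10 points for shares) were set after values were seen. No paired analysis was possible because the authors averaged the replicates of each cell type into 1 track, and for the same reason no replicate could be left out. Depth is not given in the tracks.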
